A study of Mus musculus with 4 samples.

Results

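Striatal projection neuron genes were followed in RNA from brain septal tissue. The set held 7 genes of 15409 listed, namely Drd1, Tac1, Drd2, Adora2a, Gpr6, Penk and Ppp1r1b. They were chosen by name as genes of the medium spiny neurons of the striatum, and their levels across these same libraries were known when they were chosen. Their values are therefore given as a description, with no p-value for any member. Where a count of members called in the fit over all genes is printed, it stands beside the share of all genes called and nothing is read from it. The study compared TCRb-/- mice, deficient for the T cell receptor beta chain, with wild-type (WT) mice. Both genotypes went through 30 min of restraint in a plastic cone on each of 3 days, and tissue was taken 1.5 h after the final restraint; unstressed mice are not analysed here. There were 2 libraries per genotype, 1 each in experiments 1 and 2, and each was made from the pooled septal tissue of 4 to 5 mice. A replicate is thus a pool, and its number is also its experiment. Total RNA came from cleared lysate. No age, sex or strain background is given in the sources used here. Pairs of values below are for replicates 1 and 2, in that order.

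Medium spiny neurons are the GABA-releasing output neurons of the striatum, which lies beside the septum. Direct pathway neurons carry the dopamine receptor Drd1, which raises cyclic AMP, and make the tachykinin precursor Tac1. Indirect pathway neurons carry Drd2, which lowers cyclic AMP, together with Adora2a and Gpr6, which raise it, and make the enkephalin precursor Penk. Both kinds hold Ppp1r1b (DARPP-32), a phosphoprotein that inhibits protein phosphatase 1 when cyclic AMP-dependent kinase has acted on it. Some of these genes, Penk and Tac1 among them, are also transcribed in other forebrain neurons.

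The libraries held between 19988137 and 26210790 reads, and TCRb-/- replicate 2 was the shallowest. Levels are in CPM, a read count divided by its library total and rescaled alike in every library. Trbc2, a beta chain constant region gene that checks the genotype labels, had 169 and 86 reads in WT. It had 0 reads in each TCRb-/- library, where a limit of 3 reads corresponds to 0.122 and 0.150 CPM. The tissue label was checked against 7 septal genes, all of which were listed. Among them the transcription factor genes Zic1 and Zic4 lay between 34.6 and 57.3 CPM, and the channel gene Trpc4 between 25.7 and 32.3 CPM. The smallest p that exact permutation allows for 2 libraries against 2 is 0.333.

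RefSeq promoter windows (GRCm38.p6) were on hand for 4 of the 7 genes, in 5 windows. The 250 bases before the start of Gpr6 and Tac1 are shown because these genes stand at the 2 ends of how alike the members' profiles were, and because each window held a match to a cyclic AMP response motif. Capitals mark the match. The Gpr6 window lies on the minus strand at chr10:41072291-41072540, and TGACGTCA begins 78 bases before the start. The Tac1 window lies on the plus strand at chr6:7554811-7555060, and TGCGTCA begins 199 bases before the start. That RefSeq start lies inside the GENCODE gene model of Tac1, so most of the window overlaps the gene as positioned below.
Gpr6: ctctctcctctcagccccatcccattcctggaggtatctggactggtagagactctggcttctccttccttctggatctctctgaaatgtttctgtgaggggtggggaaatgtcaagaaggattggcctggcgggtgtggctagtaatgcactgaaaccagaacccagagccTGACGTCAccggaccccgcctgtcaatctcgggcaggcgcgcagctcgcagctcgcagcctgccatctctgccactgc
Tac1: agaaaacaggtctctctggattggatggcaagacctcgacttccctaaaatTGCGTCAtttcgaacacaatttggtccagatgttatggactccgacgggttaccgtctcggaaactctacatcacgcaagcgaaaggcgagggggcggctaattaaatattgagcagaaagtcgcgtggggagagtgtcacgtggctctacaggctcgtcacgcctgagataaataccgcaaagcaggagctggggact

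Both strands were searched for TGACGTCA, TGCGTCA and the shorter TGACG, which is part of the first and, on the other strand, of the second. TGACGTCA was in 1.55%, TGCGTCA in 1.75% and TGACG in 17.8% of 32851 windows of the same length. The Drd2 window and both Drd1 windows held none of the 3. A match is a run of letters in the window and no measure of binding.

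Every member had its highest level in TCRb-/- replicate 1 and its lowest in TCRb-/- replicate 2, with the WT libraries between them; 31.7% of all 13912 genes tested also had their lowest level in that library. In bulk tissue, fewer cells of a type and less RNA per cell cannot be told apart. Drd1 (chromosome 13, 54051183 to 54055705) had 167 CPM in TCRb-/- replicate 1, 25.7 CPM in TCRb-/- replicate 2, 146 CPM in WT replicate 1 and 81.3 CPM in WT replicate 2. Positions of this and the other members, all protein-coding genes, are on GRCm38. The genotypes overlapped, since the WT values lay inside the TCRb-/- range. Its mean was 96.4 ± 99.9 CPM in TCRb-/- and 114 ± 45.6 CPM in WT (SD, n = 2 each).

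Drd2 (chromosome 9, 49340627 to 49408177) was the least abundant of the 7, with 48.9 and 12.8 CPM in TCRb-/- and 42.1 and 27.9 CPM in WT. The 12.8 CPM rested on 255 reads, with an exact 95% interval of 11.2 to 14.4 CPM. Adora2a (chromosome 10, 75316877 to 75334784), a receptor for adenosine, had 107 and 13.7 CPM in TCRb-/- and 81.4 and 44.4 CPM in WT. Gpr6 (chromosome 10, 41069977 to 41072285), an orphan receptor that couples to cyclic AMP production, had 86.0 and 20.3 CPM in TCRb-/- and 76.1 and 46.8 CPM in WT. In each of these receptor genes TCRb-/- replicate 2 stood lowest and WT replicate 2 second lowest.

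The peptide precursor genes showed the same order of libraries. Tac1 (chromosome 6, 7554879 to 7565834), the precursor of substance P and neurokinin A, had 210.0 and 85.0 CPM in TCRb-/- and 197 and 154 CPM in WT. Penk (chromosome 4, 4133531 to 4138819), the precursor of the enkephalins, had 1241 and 325 CPM in TCRb-/- and 1121 and 806 CPM in WT. Ppp1r1b (chromosome 11, 98348404 to 98357796) had 1574 and 299.8 CPM in TCRb-/- and 1409 and 804 CPM in WT. An annotated gene on the other strand shares exon sequence with Penk (A830012C17Rik, up to 157 bases) and with Ppp1r1b (1700003D09Rik, up to 215 bases), and no strand setting for the counting is given in the sources used here. Across all 7 genes the half-width of the exact 95% interval ran from 0.997% to 12.5% of the value, which covers counting error only.

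**Figure D1:**
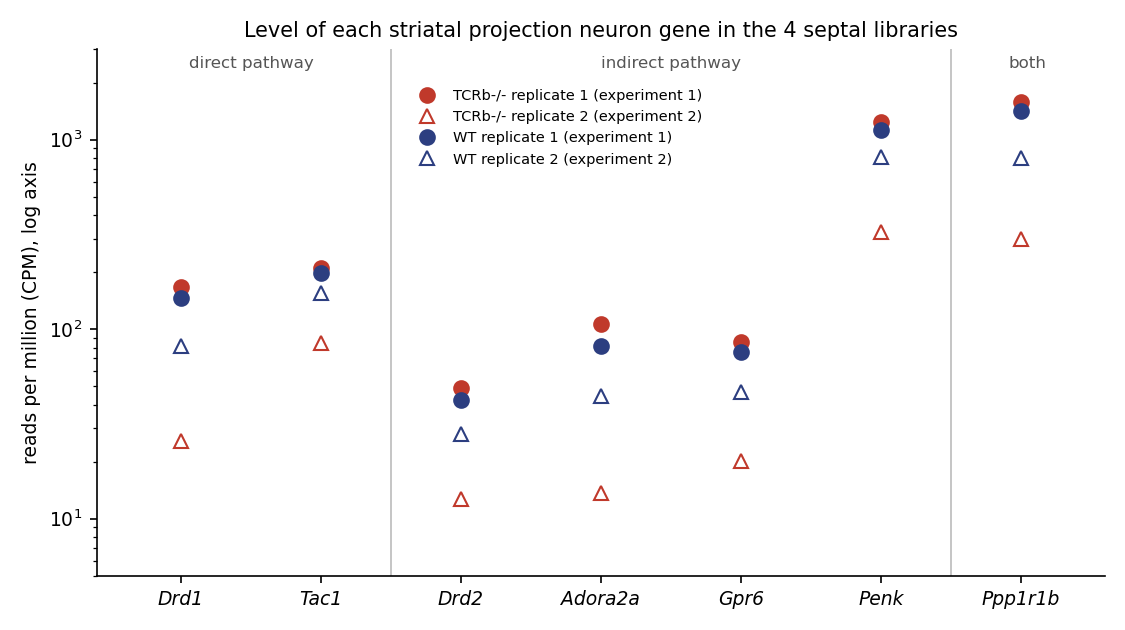
CPM (log axis) of the 7 genes in each library, with colour for genotype and filled circles or open triangles for experiments 1 and 2; each point is 1 pooled library. In every gene the open red triangle of TCRb-/- replicate 2 is lowest, from 12.8 CPM for Drd2 to 325 CPM for Penk.

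Per kilobase of the longest protein-coding transcript, the order of the members' levels was Penk, Ppp1r1b, Tac1, Gpr6, Drd1, Adora2a and Drd2 in each of the 4 libraries. The mean level was 603 ± 282 CPM per kb for Penk, 511 ± 292 for Ppp1r1b and 131 ± 45.8 for Tac1 (SD, n = 4 libraries). It was 32.1 ± 16.7 CPM per kb for Gpr6, 29.3 ± 17.9 for Drd1, 23.7 ± 15.8 for Adora2a and 12.9 ± 6.30 for Drd2. Over the libraries, Tac1 (69.1 to 171 CPM per kb) and Gpr6 (11.3 to 48.1) were the only neighbours in this order whose ranges did not overlap. The peptide precursors and Ppp1r1b thus stood above the 4 receptor genes in all 4 libraries.

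The study's question was how TCRb-/- and WT septal tissue differ after stress. For the members the answer differed in sign between the experiments. In experiment 1 all 7 were higher in the TCRb-/- library, by 0.09 (Tac1) to 0.39 (Adora2a) on the log2(CPM + 1) scale, with a median of 0.17. In experiment 2 all 7 were lower in the TCRb-/- library, from -0.85 for Tac1 to -1.63 for Adora2a, with a median of -1.31. In CPM, Adora2a was 1.32-fold higher in TCRb-/- in experiment 1 and 3.25-fold higher in WT in experiment 2. A total of 6 members, all but Tac1, were more than 2-fold lower in TCRb-/- in experiment 2, against 1.14% of all genes tested. Penk was 1.11-fold higher in TCRb-/- in experiment 1 and 2.48-fold higher in WT in experiment 2. Both medians over all 13912 genes tested were near 0 (0.0071 and 0.0036). Of those genes, 24.6% were likewise above WT in experiment 1 and below it in experiment 2. With 1 library per genotype in each experiment, this change of sign could not be tested.

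Averaged over experiments, the TCRb-/- minus WT difference ran from -0.71 for Drd1 to -0.38 for Tac1, with a median of -0.58 against 0.00069 for all genes tested. Limma called 0 of the 7 genes by genotype, against 0.0% of all genes tested (43 genes, 0.309%, at an unadjusted p under 0.05). With the experiment as a block it also called 0, against 0.0144% (784 genes, 5.64%, at an unadjusted p under 0.05). The genotypes overlapped in all 7 genes, while 17.8% of all genes tested had genotypes that did not overlap. Without TCRb-/- replicate 2 the median was 0.52, so the sign of the averaged difference rested on that library. Without TCRb-/- replicate 1, where TCRb-/- replicate 2 stands alone, it was -1.55 and limma called all 7 lower, against 0.316% of all genes tested. That fit assumes that the lone library varies as the WT libraries do. It also sets a TCRb-/- library of experiment 2 against WT of both experiments. The -1.55 and the calls therefore hold part of the gap between experiments and cannot be read as genotype alone. The 0.52 likewise sets a TCRb-/- library of experiment 1 against WT of both experiments. Within experiments 1 and 2 the members' medians were 0.17 and -1.31.

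Both experiment 2 libraries lay below both experiment 1 libraries for all 7 members, an arrangement found in 37.2% of all genes tested. The order TCRb-/- replicate 1, WT replicate 1, WT replicate 2, TCRb-/- replicate 2 from highest to lowest, shared by all 7, was found in 12.9%. The members' difference between experiments had a median of -1.36 (log2), against -0.03 over all genes tested. Limma called 7 of 7 lower in experiment 2, against 14.7% of all genes tested. The count was 0 without TCRb-/- replicate 1, 0 without WT replicate 1 and 0 with moderation that ignores the mean-variance trend, and 7 without TCRb-/- replicate 2.

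Within WT, experiment 2 was lower than experiment 1 by 1.28-fold for Tac1, 1.39-fold for Penk and 1.51-fold for Drd2. The gap in WT was 1.63-fold for Gpr6, 1.75-fold for Ppp1r1b, 1.79-fold for Drd1 and 1.83-fold for Adora2a. Within TCRb-/-, the same order held with larger gaps, from 2.47-fold for Tac1 through 3.82-fold for Penk, 3.83-fold for Drd2, 4.24-fold for Gpr6, 5.25-fold for Ppp1r1b and 6.49-fold for Drd1 to 7.84-fold for Adora2a. Tac1 thus kept 40.5% of its experiment 1 level in TCRb-/- and 78.2% in WT, whereas Adora2a kept 12.8% and 54.5%. The 2 series of gaps share no library but come from the same 2 experiments, and they are ordered alike over the 7 genes in CPM and in the deposited log2 values (Spearman coefficient 1). On the log2(CPM + 1) scale Drd2 and Penk changed places and the coefficient was 0.96. It lay between 0.79 and 0.96 under the other scalings and pseudocounts. Across all 13912 genes tested, which are not independent replicates, it was 0.70.

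**Figure D2:**
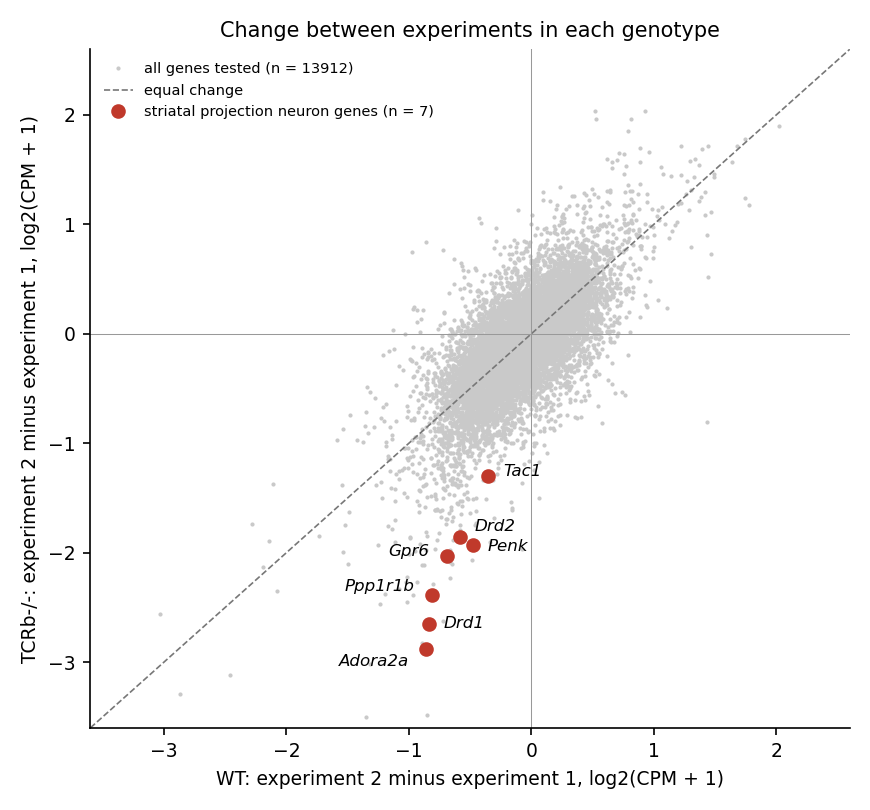
Experiment 2 minus experiment 1 on the log2(CPM + 1) scale, WT on the horizontal and TCRb-/- on the vertical axis; red points are the 7 members, grey points the 13912 genes tested (4 lie outside the axes), and the dashed line marks equal change. All members lie left of and below 0 and under the dashed line, from Tac1 (-0.35 and -1.30) to Adora2a (-0.86 and -2.88).

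Ratios taken within a library do not depend on its total and show which members kept in proportion. Drd2 to Penk was the steadiest of these pairs after Gpr6 to Drd2, at 0.0394 and 0.0392 in TCRb-/- and 0.0376 and 0.0346 in WT. Gpr6 to Drd2 lay between 1.59 and 1.81 in the 4 libraries. Drd2, Gpr6 and Penk of the indirect pathway therefore stayed nearly proportional to each other. Adora2a, of the same pathway, did not: its ratio to Penk was 0.0863 and 0.0420 in TCRb-/- and 0.0726 and 0.0551 in WT.

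The direct pathway genes also parted from each other. Drd1 to Tac1 was 0.795 and 0.303 in TCRb-/- and 0.739 and 0.527 in WT, so the ratio was lower in experiment 2 in both genotypes. Drd1 to Adora2a, a pair that crosses the pathways, ranged only from 1.56 to 1.88. Tac1 to Adora2a had the widest range of the pairs examined, at 1.96 and 6.22 in TCRb-/- and 2.42 and 3.48 in WT. Drd1 to Drd2 was 3.42 and 2.02 in TCRb-/- and 3.461 and 2.92 in WT. Drd1, Adora2a and Ppp1r1b were thus lower in experiment 2 by more than Drd2, Gpr6, Penk and Tac1, and this division runs across the direct and indirect pathways.

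**Figure D3:**
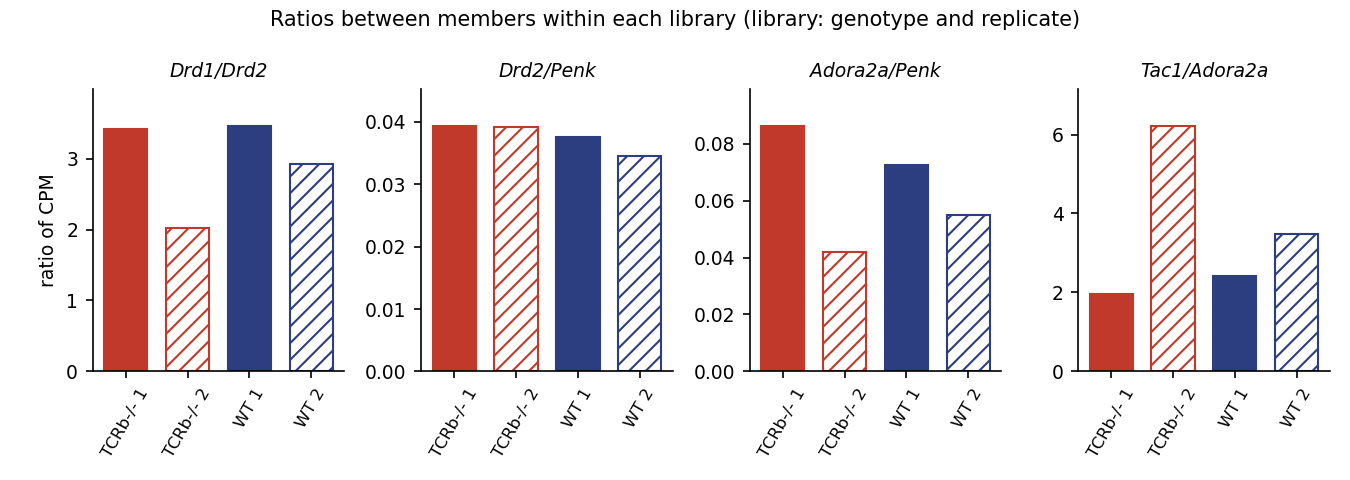
Ratio of CPM between named members within each library (linear axes from 0; red TCRb-/-, blue WT; filled bars experiment 1, hatched bars experiment 2; 1 pooled library per bar). Drd2 to Penk stays between 0.0346 and 0.0394, whereas Tac1 to Adora2a reaches 6.22 in TCRb-/- replicate 2.

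Other genes taken to mark these neurons or to signal in them were read from lists of 43 genes in all, of which 42 were tested. How much of their RNA came from other neurons was not tested. None of the 42 was called by genotype with all 4 libraries, with or without the experiment as a block. In limma 33 of the 42 fell in experiment 2 (adjusted p under the threshold), with none rising, against 14.7% of all genes tested. Their median difference between experiments was -0.94 (log2). Without TCRb-/- replicate 1, their median difference by genotype was -0.89. That value sets the TCRb-/- library of experiment 2 alone against WT of both experiments, so it holds part of the gap between experiments. The count of 33 was 30 without TCRb-/- replicate 2, 32 without WT replicate 2, 11 without TCRb-/- replicate 1, 17 without WT replicate 1 and 2 without the mean-variance trend.

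Of 18 genes that carry or modify the cyclic AMP and dopamine signal, 16 fell in experiment 2, with a median of -0.80. Gng7, a G protein gamma subunit of striatal receptors, fell by 1.65 (SE 0.27, adjusted p 0.00836 in limma), from 1224 and 1038 CPM in TCRb-/- and WT of experiment 1 to 253 and 511 CPM in experiment 2. Arpp21, a phosphoprotein regulated by cyclic AMP, fell by 1.54 and the phosphodiesterase gene Pde1b by 1.01. Ppp3ca, the catalytic subunit of calcineurin, which removes phosphate from DARPP-32, fell by 0.58. Prkaca and Cdk5, kinases that phosphorylate DARPP-32, did not pass the test, at 0.14 and 0.17. The count of 16 was 13 without TCRb-/- replicate 2, 7 without TCRb-/- replicate 1, 9 without WT replicate 1 and 1 without the trend.

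Of 12 genes that mark projection neuron identity, 11 fell in experiment 2, with a median of -1.05. Scn4b, a sodium channel beta subunit, fell by 2.43 (SE 0.53, adjusted p 0.0171 in limma), from 259 and 242 CPM to 22.0 and 94.4 CPM in TCRb-/- and WT. The homeobox gene Meis2 fell by 0.96, Syndig1l by 1.13 and Lrrc10b by 1.11. Six3 did not pass the test, at 0.14. The count of 11 was 11 without TCRb-/- replicate 2, 4 without TCRb-/- replicate 1, 7 without WT replicate 1 and 1 without the trend.

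The lists particular to 1 pathway held both genes that fell and genes that did not pass the test. Of 7 other direct pathway genes, 4 fell in experiment 2, among them Pdyn, the dynorphin precursor, by 0.99 (SE 0.29, adjusted p 0.0429 in limma) and Slc35d3 by 0.99 (adjusted p 0.01597). The transcription factor genes Isl1 (0.20) and Zfp521 (-0.27) did not pass the test. Of 5 other indirect pathway genes tested, Gprin3 fell by 1.11 (SE 0.25, adjusted p 0.0203 in limma) and the kainate receptor gene Grik3 by 0.42, while Sp9 (0.12) and Plxdc1 (0.11) did not pass it. Isl1 lay between 41.9 and 52.1 CPM and Sp9 between 44.2 and 53.6 CPM in the 4 libraries, with neither ordered as the members were. The counts of 4 and 2 were both 0 without TCRb-/- replicate 1 and without the trend, were 1 and 0 without WT replicate 1, and the second was 1 without WT replicate 2. They were 3 and 1 under quantile normalization, and the first was 2 with the filter at 10 CPM, where fewer genes were tested.

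Receptors and enzymes that act on the members' products and ligands were read in the same way. No gene of these lists was called by genotype. Of 4 opioid and tachykinin receptor genes tested, the substance P receptor gene Tacr1 fell in experiment 2, by 0.66 (SE 0.12, adjusted p 0.0119 in limma), and it did not pass the test without TCRb-/- replicate 1 or WT replicate 1. Of the 4, 2 were called with genotype as a block or a pseudocount of 5, and 3 without WT replicate 2. The opioid receptor genes Oprd1 (-0.77) and Oprk1 (-0.44) and the neurokinin receptor gene Tacr3 (0.02) did not pass it. Of 6 adenosine genes, Nt5e, which makes adenosine outside the cell, fell by 0.98 (adjusted p 0.0217) and Adora1 by 0.36 (0.0219), while Adk (0.15) and Slc29a1 (0.22) did not pass it. Both calls were lost without TCRb-/- replicate 1 and without the trend. Of 6 peptide processing genes, Pcsk2 fell by 0.47, Pcsk1n rose by 0.54, and Cpe (0.13) and Scg5 (0.21) did not pass it; both calls were lost without the trend. Drd5 lay between 2.12 and 2.98 CPM.

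Genes of the regions and cell types around the striatum and septum were read in the same libraries. Some of their lists differed between libraries and others differed little, and their part in the members' values was not tested. In limma, 8.95% of all genes tested rose in experiment 2. The summed level of 7 septal genes was 188 and 247 CPM in TCRb-/- and 167 and 203 CPM in WT. Of these genes Zic1 and Zic4 rose in experiment 2, and the count was 4 with genotype as a block, 1 without TCRb-/- replicate 1, 0 without TCRb-/- replicate 2, 0 without WT replicate 1 and 6 without WT replicate 2. The sum of 7 thalamic genes was 302 and 582 CPM in TCRb-/- and 294 and 382 CPM in WT. Of these 4 rose, a count that was 1 without TCRb-/- replicate 1 and 7 without WT replicate 2. The sum of 8 cortical and hippocampal genes was 239 and 70.3 CPM in TCRb-/- and 301 and 67.3 CPM in WT. Of these 6 fell, a count that was also 6 without the trend. Their median difference between experiments was -1.18, and it was -1.45 without TCRb-/- replicate 1 and -0.91 without WT replicate 1. Choroid plexus genes, 11 in all, summed to 2131 and 6870 CPM in TCRb-/- and 1300 and 4172 CPM in WT. Of these 10 rose, and 7 did so without WT replicate 1. Ttr, the transthyretin gene of that list, was the only gene on any of the lists called by genotype with all 4 libraries. It was called only with the experiment as a block (adjusted p 0.0323 in limma). The other gene called in that fit was Trbc2. Without the trend no septal, thalamic or choroid plexus gene was called. None of the markers on these 4 lists was at 0 in any library.

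The sum of 6 general neuronal genes, of which Snap25 was the most abundant, lay between 6174 and 6778 CPM. In experiment 2 Tubb3 (0.31) and Stmn2 (0.36) of this list rose and Syt1 (-0.33) and Rbfox3 (-0.34) fell; 0 of the 4 calls held without TCRb-/- replicate 2 or without the trend, and 1 held without TCRb-/- replicate 1. The sum of 6 astrocyte genes lay between 2212 and 2442 CPM. In limma 1 of 8 oligodendrocyte genes, 1 of 6 microglial genes and 1 of 3 cholinergic genes fell in experiment 2, and 0 of 6 astrocyte and 0 of 4 endothelial genes were called. In experiment 2 the TCRb-/- minus WT median was -1.31 for the members, -0.72 for the projection neuron identity genes, 0.82 for the thalamic genes, -0.10 for the cortical and hippocampal genes and 0.24 for the septal genes. In experiment 1 the corresponding medians were 0.17, 0.09, -0.26, -0.33 and 0.25. The members and the thalamic list thus both changed sign between experiments, in opposite directions, and the septal list did not. Other lists changed sign as the members did. The oligodendrocyte list went from 0.15 to -0.05, with 7 of 8 genes changing so, against 24.6% of all genes tested. The dopamine neuron list went from 0.03 to -0.07. These differences between lists were not tested.

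**Figure D4:**
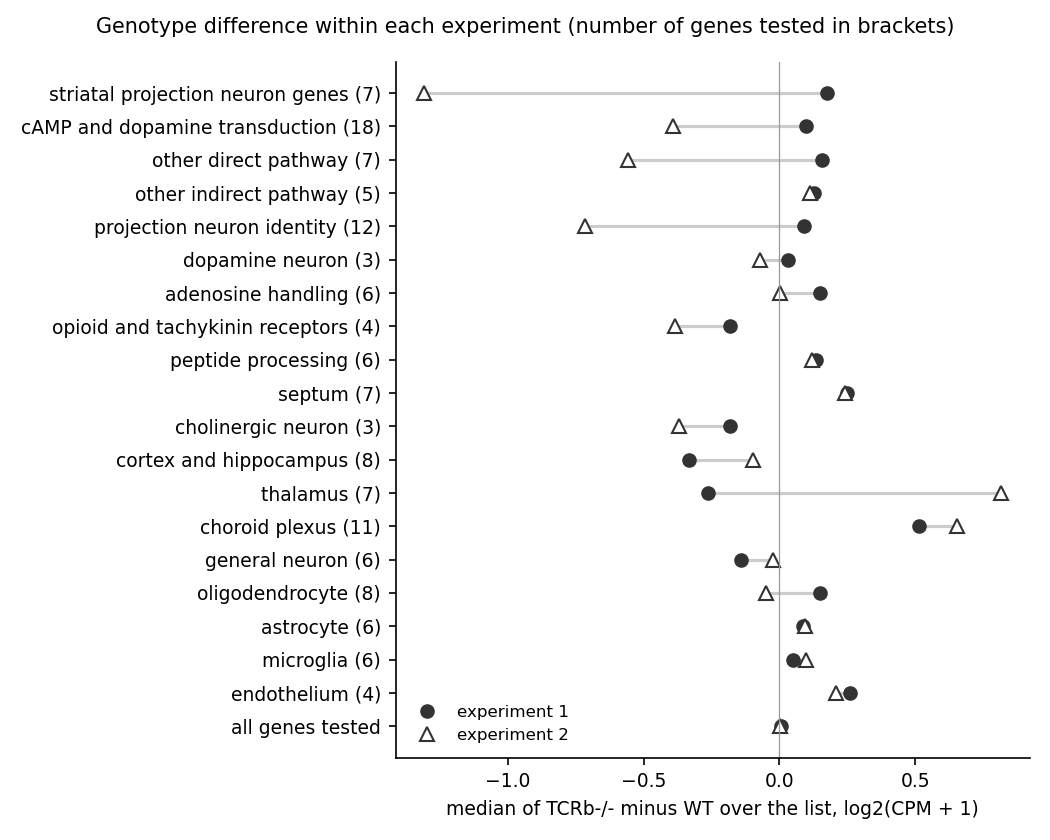
Median TCRb-/- minus WT difference over each gene list on the log2(CPM + 1) scale, in experiment 1 (filled circles) and experiment 2 (open triangles), with the number of genes tested in brackets; each median compares 1 library with 1 library. The members go from 0.17 to -1.31, the thalamic genes from -0.26 to 0.82, and all genes tested stay near 0.

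Genes outside the set were ranked by how close their profile over the 4 libraries came to the members' mean profile, as the Euclidean distance between centred log2(CPM + 1) values. Among the members this distance was smallest for Gpr6 (0.10) and largest for Tac1 (0.66). Among the 10 closest other genes were Rarb (0.10), Asb11 (0.11), Crym (0.12), Rgs9 (0.16), Tiam2 (0.18), Arpp21 (0.20), Ptpn7 (0.24), Dach1 (0.25) and Adcy5 (0.25). Of those named, 4 were on the projection neuron lists: Rarb, a retinoic acid receptor, Rgs9, which speeds the end of G protein signalling, Arpp21 and Adcy5, an adenylyl cyclase. Rarb had 112 and 25.4 CPM in TCRb-/- and 106 and 67.4 CPM in WT. Crym, which encodes the thyroid hormone-binding mu-crystallin, had 261 and 65.5 CPM in TCRb-/- and 244 and 154 CPM in WT. Asb11 and Ptpn7 were low, at 1.25 and 0.350 CPM in TCRb-/- replicate 2. The measure of likeness rests on 4 libraries and carries no test.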

How the data were processed

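RNA of 4 libraries was analysed. Per the submitters' processing notes, HISAT2 2.1.0, SAMtools 1.3, HTSeq 0.9.1, R 4.0.5, limma 3.46.0 and the build mm10 were used; no annotation or row filter is given in the sources used here. RNA, per the labels' protocols, came from cleared detergent lysates, and libraries from an ultra-low-input kit. The authors deposited log2 values, log2 of CPM with 0.5 added to each read count. Solving for the library total returned whole reads for 100% of values (tolerance 0.001 reads). The 17 ERCC spike-in rows were left out. CPM was transformed to log2(CPM + 1), which understates changes of low genes. The 13912 genes that averaged 1 CPM or more were tested with limma 3.58.1 in R 4.3.3, with a mean-variance trend, two-sided, Benjamini-Hochberg threshold 0.05, genotype or experiment as the only term. The genotype fit was tested on simulated counts that held no gap between experiments, so that test does not cover the gap seen in these libraries. All 7 members passed the filter.

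The labels give same-numbered libraries the same experiment, so numbers pair them; deviations from genotype means correlated at 0.72 across genes. The labels do not say that pools shared no litter. No genotype had more than 1 pool in an experiment. The spread behind the p-values by genotype is therefore that between pools of different experiments. Between experiments, it is that between pools of different genotype. With the block, it is what both terms leave over. The members and lists were chosen with earlier results of these data known. Named were the members, genes from among the 4 most abundant of each list, any list gene called by genotype, the 10 nearest profiles (1 of which is not reported here) and Trbc2; Prkaca, Cdk5, Six3, Slc6a3, Tubb3 and Rbfox3 and the ratio pairs were chosen after values were seen. Gene models came from GENCODE M21 and promoters from RefSeq. Other software was Python 3.11.15 with matplotlib 3.10.9, scipy 1.17.1, pandas 2.3.3 and numpy 2.4.6. Alternatives were another scaling (median of ratios, quantile), pseudocounts of 0.1 and 5, no filter, a 10 CPM filter, no trend, the deposited values, the replicate block and leaving out each library.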

Additional observations from a re-analysis of the deposited data

Results flagged for a closer look

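The TCRb-/- minus WT difference pointed one way in experiment 1 and the other way in experiment 2 for all 7 striatal projection neuron genes, a pattern that 24.6% of all genes tested shared. On the log2(CPM + 1) scale Drd1 was at 0.19 in experiment 1 and -1.62 in experiment 2. Tac1 was at 0.09 and -0.85. Drd2 was at 0.21 and -1.07, and Adora2a at 0.39 and -1.63. Gpr6 was at 0.17 and -1.17, and Penk at 0.15 and -1.31. Ppp1r1b was at 0.16 and -1.42. Each value compares 1 library with 1 library, and the difference between experiments was not tested.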

How the results depend on the processing

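Leaving single libraries aside, all 126 values of single members under an alternative kept their direction and moved by less than the spread between libraries. That spread is wide, since by genotype it includes the gap between experiments, and between experiments the genotype gap. The block, the filters and the fit without the trend cannot change a member's difference. Only the scalings, pseudocounts and deposited values could move it. The count of genes by genotype was 0 under every alternative with all libraries except the replicate block, where it was 2, neither of them a member; the block changed no member's call. Between experiments 3292 genes were called, and 629 without the trend; the cause was not tested. Higher calls were 1245 of 3292, and 1634 of 3227 under quantile normalization. With single libraries left out, 0 to 47 genes were called by genotype (47 without TCRb-/- replicate 1) and 1406 to 3390 between experiments (1406 without TCRb-/- replicate 1, 1823 without TCRb-/- replicate 2 and 1637 without WT replicate 1). With a library left out, genotype and experiment are unbalanced, so a difference by one holds part of the gap by the other. The members' median ranged from -1.55 to 0.52 by genotype. The single members ranged from -2.04 to 0.61 for Drd1, from -1.03 to 0.27 for Tac1, from -1.36 to 0.50 for Drd2, from -2.06 to 0.82 for Adora2a, from -1.51 to 0.52 for Gpr6, from -1.55 to 0.38 for Penk and from -1.82 to 0.56 for Ppp1r1b, with every positive value coming from the fit without TCRb-/- replicate 2. Between experiments the members' median ranged from -1.95 to -0.78. Depth limits Drd2 and Adora2a most, with 255 and 273 reads in TCRb-/- replicate 2.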

Other observations

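Genes that mark dopamine-making neurons, which supply the ligand of Drd1 and Drd2, were read from a list of which 3 were tested. In experiment 2, 2 of the 3 rose, against 8.95% of all genes tested. Th, the first enzyme of dopamine synthesis, was at 26.4 and 41.1 CPM in TCRb-/- and at 25.8 and 43.9 CPM in WT (replicates 1 and 2), and it rose by 0.68 in experiment 2 (SE 0.09, adjusted p 0.00534 in limma). Ddc, the next enzyme, rose by 0.50 (adjusted p 0.0129), and its call was lost without TCRb-/- replicate 1 or without the trend. Slc18a2, the vesicular monoamine transporter gene, did not pass the test, at 0.15 (adjusted p 0.413 in limma). The dopamine transporter gene Slc6a3 was under 1 CPM in each library, from 0.488 to 0.878 CPM, and was not tested.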
